A study of Mus musculus with 10 samples.

Results

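Lipases split triglycerides, and a small set of carriers brings the fatty acids into cells. RNA of 10 such genes is described here in mouse liver after silencing of Rab5, the small GTPase of early endosomes: the lipases Lpl and Lipc, the uptake receptors Cd36 and Vldlr, the fatty acid binding proteins Fabp1, Fabp2, Fabp4 and Fabp5, and the fatty acid transport proteins Slc27a2 and Slc27a4. Members were taken by their symbol in the annotation of the array, with every probe set (the group of short probes that reads 1 transcript) that carries only that symbol. This gave 22 of 45101 probe sets, for 9 of the 10 genes. Lipc, the hepatic lipase, was not analysed here. Of the 22 probe sets, 15 passed the filter on low values, and all 9 genes were among the 12855 genes tested.

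The livers came from male C57BL/6 NHsd mice, an inbred strain, injected through the tail vein. The groups were PBS without RNA (2 arrays), lipid nanoparticles with a control RNA (4 arrays) and nanoparticles with siRNAs against all Rab5 genes (4 arrays). Mice of the control siRNA and Rab5 siRNA groups received 1.5 mg/kg of RNA, and liver RNA was taken at day 5 in all groups. The titles call the control RNA scrambled while the design text names luciferase, so it is called control siRNA here. The animals' age is not given in the sources used here, and nothing says in words that each array is a separate mouse, so the tests cover only how these samples vary, which may be technical. The siRNAs act on whichever liver cells take up the particles, and whole liver was measured, so fewer cells of a type and less RNA per cell cannot be told apart.

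Fatty acids reach the liver by several routes. Lipoprotein lipase (Lpl) frees them from triglyceride-rich lipoproteins at the capillary wall and is low in adult hepatocytes, while macrophages, muscle and fat make much of it. Cd36 and the Slc27 proteins help them across the plasma membrane, the Slc27 proteins by joining them to coenzyme A, and the fatty acid binding proteins carry them in the cytosol. Fabp1 is the abundant liver form, Fabp2 the intestinal, Fabp4 the form of fat cells and macrophages, and Fabp5 the epidermal form. Vldlr, a relative of the LDL receptor, binds triglyceride-rich lipoproteins and is scarce in healthy liver.

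The nuclear receptor PPARalpha, with its partner RXR, binds direct repeats of AGGTCA spaced by 1 base, and several of these genes are its known targets. Promoter windows from RefSeq (build GRCm38.p6, 250 bases before to 50 after the start site) were found for 7 of the 10 genes. They are shown for Fabp1 and Slc27a2, which fell after Rab5 siRNA, and for Cd36, which did not pass the test. Each is the 250 bases before the start site, 5′ to 3′ along the gene. Capitals mark AGGTCANAGGTCA with at most 2 mismatches, single copies of AGGTCA, which may lie inside a repeat, TATAAA and CCAAT, each searched on both strands.

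Fabp1, chr6:71199629-71199878, plus strand: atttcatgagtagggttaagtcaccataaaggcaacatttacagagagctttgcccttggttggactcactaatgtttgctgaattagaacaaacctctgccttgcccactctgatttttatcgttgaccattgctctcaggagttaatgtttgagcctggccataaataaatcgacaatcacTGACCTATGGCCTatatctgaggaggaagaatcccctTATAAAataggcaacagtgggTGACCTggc

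Slc27a2, chr2:126552774-126553023, plus strand: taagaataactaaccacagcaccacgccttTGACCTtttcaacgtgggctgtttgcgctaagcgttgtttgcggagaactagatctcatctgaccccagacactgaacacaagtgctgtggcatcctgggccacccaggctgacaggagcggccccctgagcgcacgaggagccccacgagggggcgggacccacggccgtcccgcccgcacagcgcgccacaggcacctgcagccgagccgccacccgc

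Cd36, chr5:17835897-17836146, minus strand: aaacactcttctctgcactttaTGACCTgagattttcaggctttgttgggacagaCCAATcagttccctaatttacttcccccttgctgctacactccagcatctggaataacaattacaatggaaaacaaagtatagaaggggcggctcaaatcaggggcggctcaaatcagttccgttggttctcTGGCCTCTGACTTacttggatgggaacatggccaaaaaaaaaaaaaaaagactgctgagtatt

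In the Fabp1 window a match to the repeat, TGACCTATGGCCT on the reverse strand, began 67 bases before the start site with 1 mismatch, and TATAAA began 30 bases before it. The Cd36 window held TGGCCTCTGACTT, a match with 2 mismatches that began 63 bases before the start site. The Slc27a2 window held no match to the repeat and a single AGGTCA copy on the reverse strand, 220 bases before the start site. Among 32851 windows of the same length, 3.86% held the repeat, 16.3% a single copy, 13.6% TATAAA and 37.4% CCAAT. These are letters found, not sites shown to be bound.

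Values are log2 expression, and a change is a difference of group means on that scale with its standard error (SE) from limma. A gene was called at a limma adjusted p (Benjamini-Hochberg over all genes tested) under 0.05, and its brightest probe set stood for it. Probe sets have no common scale per length, so levels are not compared between genes. The silencing was checked first. Rab5a left 28.6% and Rab5c 25.1% of the control signal (changes of -1.81 and -1.99, adjusted p = 1.16e-05 and 1.64e-07). Rab5b, the remaining target, was close to the table median (4.34 in control livers), its groups overlapped, and it left 84.5% of the signal, which did not pass (-0.24, SE 0.127, adjusted p = 0.194). The array medians lay between 4.29 and 4.37. The 8 hepatocyte markers (among them Alb and Ttr) were present on all arrays, with a mean between 12.93 and 13.09 in control and 12.69 and 12.84 in Rab5 livers. For Rab5 minus control siRNA, 1 of the 8 rose (Ahsg, 0.69) and 2 fell (Tat, -1.37, and Cyp2e1, -0.95). The others, among them Alb (0.05) and Ttr (-0.17), did not pass. The adipocyte markers Adipoq, Lep and Cidea lay under the table median of 4.33 on every array. Of 14 macrophage markers 8 rose and 0 fell, against 13.8% and 9.51% of all genes tested. In each group the array numbered 2 had the largest difference between the 3′ and 5′ probe sets of Gapdh, a sign of RNA quality (2.58 in PBS, 2.86 in control, 2.67 in Rab5 livers, against 2.15 to 2.38 in the other arrays). The same difference for Actb was also largest in the array numbered 2 of each group. It separated the groups without overlap, at 2.59 to 2.75 in Rab5 livers and 2.83 to 3.23 in control and PBS livers. Its part in the changes below was not tested. Calls of markers of other cells stand beside 23.3% of all genes tested (13.8% up, 9.51% down). They were 2 of 9 endothelial (1 up, 1 down), 1 of 4 monocyte and neutrophil (up) and 1 of 4 lymphocyte markers (down). Of 10 stellate markers 1 was called (Reln up, a call lost under most of the other settings tried). Of the pancreas markers 1 of 4 was called (down), and of the enterocyte markers 2 of 3 (1 up, 1 down). For adipocyte and muscle markers it was 1 of 3 (down) and 0 of 2. The enterocyte and adipocyte calls rest on genes that hepatocytes also express, Apoa4 and Car3, besides Lgals4.

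For Rab5 siRNA against control siRNA, limma called 4 of the 9 member genes, which is 44.4%, against 23.3% of all genes tested. Lpl rose, and Fabp5, Slc27a2 and Fabp1 fell. The shares of all genes that rose and fell were 13.8% and 9.51%. The median change of the 9 genes was -0.04, and that of all genes 0.0026. With every probe set in 1 fit, 6 of 22 were called (2 up, 4 down), against 10.9% of 45037 (6.21% up, 4.74% down). The control and Rab5 arrays did not overlap for the same 4 genes, 1 higher and 3 lower in Rab5 livers, a pattern seen in 25% of all genes (13.8% higher, 11.2% lower). Of the 22 probe sets 2 were higher and 5 lower without overlap, against 7.6% and 7.81% of all probe sets.

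**Figure D1:**
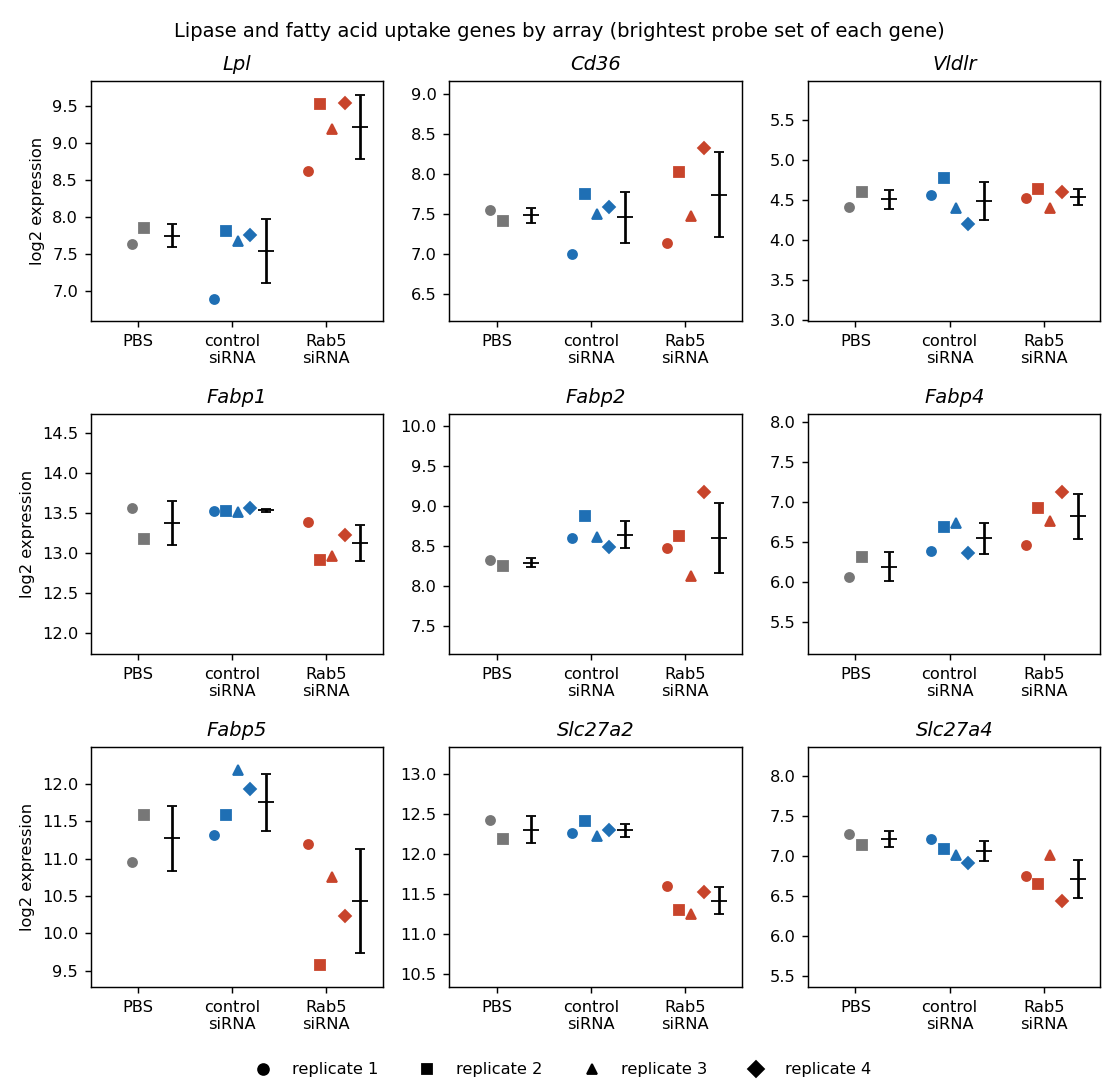
Log2 expression (vertical axes, different for each panel) of the brightest probe set of each gene in the 2 PBS, 4 control siRNA and 4 Rab5 siRNA arrays. Symbols mark the replicate number of the titles, and bars give mean and SD; Rab5 arrays lie above all others for Lpl (8.61 to 9.53) and below all others for Slc27a2 (11.24 to 11.59).

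Lpl, the lipase of the capillary wall, had the largest change of the 9 genes. Its brightest probe set read 7.64 and 7.86 in PBS livers, 6.90, 7.82, 7.68 and 7.76 in control siRNA livers (replicates 1 to 4), and 8.61, 9.52, 9.19 and 9.53 in Rab5 siRNA livers. All 4 Rab5 livers lay above all 6 others, and replicate 1 was the lowest in both siRNA groups. The change was 1.67 (SE 0.223, adjusted p = 0.000129 by limma), which is 3.19-fold. A dimmer probe set read 4.54, 4.65, 4.79 and 4.74 in control and 5.44, 6.22, 5.94 and 6.04 in Rab5 livers. It rose by 1.23 (SE 0.160, adjusted p = 0.000109 in the fit of every probe set). Against PBS, Lpl rose by 1.46 (SE 0.273, adjusted p = 0.00212), and control siRNA minus PBS was -0.21 (SE 0.273). The comparisons share arrays and are not independent. Without the arrays numbered 2, the adjusted p against PBS was 0.0535.

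Macrophages make Lpl, and 8 of their 14 markers rose as well. The mean log2 value of the 14 macrophage markers ran from 8.30 to 8.45 in PBS, from 8.23 to 8.59 in control and from 8.56 to 9.18 in Rab5 livers. Control replicate 1, lowest for Lpl, was lowest for the markers too (8.23), and among Rab5 livers replicate 1 was lowest for both (8.56 for the markers, 9.12 to 9.18 in the others). The Kupffer cell protein Cd5l rose by 1.01 (SE 0.122, adjusted p = 6.00e-05) and the lysosomal Cd68 by 1.08 (SE 0.113, adjusted p = 2.02e-05), whereas Csf1r, the receptor of the macrophage growth factor, stood at -0.13 (adjusted p = 0.422). Rab5 replicate 1 and control replicate 2, a single pair picked after seeing the values, had like marker means (8.56 and 8.59) and Lpl at 8.61 and 7.82. The mean pools markers that moved unlike each other, so like means need not be like macrophage content. Without the arrays numbered 1, a choice made after seeing the data, the change of Lpl was 1.66 (SE 0.123). The part of macrophage RNA in the rise of Lpl was not tested.

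**Figure D2:**
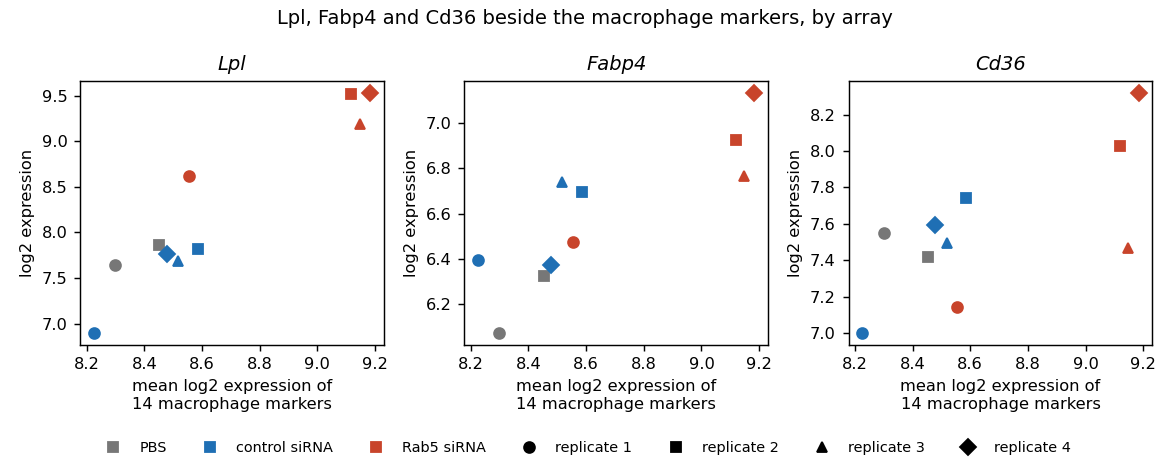
Log2 expression of Lpl, Fabp4 and Cd36 (vertical axes) against the mean log2 expression of 14 macrophage markers (horizontal axes), 1 point per array, colours for groups and symbols for replicate numbers. Of the 4 Rab5 livers, 3 have marker means from 9.12 to 9.18, while Rab5 replicate 1 (8.56) lies among the control livers. In that single array Lpl is above the control livers, and Fabp4 and Cd36 are not. The part of macrophage RNA was not tested.

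The uptake receptors did not pass. Cd36, a fatty acid receptor of hepatocytes, macrophages and capillaries, read 7.55 and 7.42 in PBS, 7.0, 7.74, 7.50 and 7.59 in control and 7.14, 8.03, 7.47 and 8.32 in Rab5 livers. The groups overlapped, with Rab5 replicates 2 and 4 above every control. Its change was 0.28 (SE 0.226, adjusted p = 0.41), and the other probe sets gave 0.47 (SE 0.261) and 0.13 (SE 0.181), neither called. The size rested on single arrays: leaving out Rab5 replicate 4 gave 0.088, control replicate 1 gave 0.13, Rab5 replicate 2 gave 0.18 and Rab5 replicate 1 gave 0.48 (adjusted p from 0.092 to 0.815). Control replicate 1 and Rab5 replicate 1 were again the lowest of their groups. For Vldlr, 5 of 6 probe sets were too dim for the filter. The remaining one read 4.57, 4.77, 4.41 and 4.21 in control and 4.53, 4.64, 4.4 and 4.60 in Rab5 livers, close to the table median, and differed by 0.05 (SE 0.122, adjusted p = 0.796). One of the dim Vldlr probe sets read 3.06, 3.03, 3.19 and 3.04 in control and 2.78, 2.80, 2.66 and 2.86 in Rab5 livers. These groups did not overlap, but the change of -0.30 did not pass (adjusted p = 0.0525 in the fit of every probe set). At such signals a change is compressed, so the array says little of Vldlr.

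Of the fatty acid binding proteins, Fabp5 fell most. It read 10.96 and 11.58 in PBS, 11.32, 11.58, 12.19 and 11.93 in control and 11.19, 9.58, 10.75 and 10.23 in Rab5 livers. Every Rab5 liver lay below every control, by little for replicate 1, and that liver lay between the PBS values. The change was -1.31 (SE 0.293, adjusted p = 0.00554), which left 40.2% of the control signal. The dimmer probe set read 8.94, 9.11, 10.13 and 9.73 in control and 9.0, 6.95, 8.41 and 7.76 in Rab5 livers, with replicate 1 inside the control range, and changed by -1.45 (SE 0.345, adjusted p = 0.0124 in the fit of every probe set). Over the 10 arrays the probe sets ran together (r = 0.989, a description, since they share arrays and gene). Against PBS the difference of Fabp5 did not pass (-0.83, SE 0.359, adjusted p = 0.141), and control siRNA minus PBS was 0.48 (SE 0.359, adjusted p = 0.999). It passed against PBS once Rab5 replicate 1 was left out (-1.08, adjusted p = 0.0258), likewise the arrays numbered 1 (-1.39, adjusted p = 0.0252), and with array weights (-1.23, adjusted p = 0.0195). It shrank to -0.24 (adjusted p = 0.826) without the arrays numbered 2, to -0.52 (adjusted p = 0.578) without PBS replicate 2 and to -0.54 (adjusted p = 0.281) without Rab5 replicate 2. Fabp5 thus fell against control siRNA, while the size of its difference from PBS depended on single arrays.

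Fabp1, the main fatty acid carrier of hepatocytes, was near the top of the scale. It read 13.57 and 13.18 in PBS, 13.53, 13.53, 13.51 and 13.57 in control and 13.39, 12.91, 12.96 and 13.23 in Rab5 livers. The controls were very close to each other (SD 0.0217), and all Rab5 livers lay below them, while 1 PBS liver lay at the level of the controls and the other within the Rab5 range. The change of -0.41 (SE 0.123, adjusted p = 0.0276) left 75.2% of the signal. The other probe set overlapped between groups, at 13.30, 13.55, 13.43 and 13.28 against 13.31, 13.01, 13.06 and 13.26, and its change of -0.23 (SE 0.106) did not pass. The call of Fabp1 was lost without control replicates 1, 2, 3 or 4 (adjusted p = 0.0549, 0.0554, 0.0528 and 0.0582), without Rab5 replicates 2 or 3 (0.0946 and 0.0857) and without the arrays numbered 2 (0.145). Against PBS Fabp1 stood at -0.25 (adjusted p = 0.299), with -0.059 when PBS replicate 1 was left out, -0.44 when PBS replicate 2 was and -0.15 when the arrays numbered 1 were.

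Fabp4, the adipocyte and macrophage form, was called only against PBS. It read 6.07 and 6.32 in PBS, 6.40, 6.69, 6.74 and 6.37 in control and 6.47, 6.93, 6.77 and 7.13 in Rab5 livers. Control and Rab5 livers overlapped, and all 8 lay above both PBS livers. Rab5 minus control was 0.27 (SE 0.144, adjusted p = 0.196), control minus PBS 0.35 (SE 0.177, adjusted p = 0.999), and Rab5 minus PBS 0.63 (SE 0.177, adjusted p = 0.0261), and only the last passed. Without Rab5 replicate 1, Rab5 minus control passed as well (0.39, adjusted p = 0.0431), and without Rab5 replicate 4 it was 0.17 (adjusted p = 0.443). The call against PBS was lost without PBS replicate 1 or 2 (adjusted p = 0.243 and 0.0634), when Rab5 replicate 2 or 4 was left out (0.0634 and 0.0541), and when the arrays numbered 2 (0.156) or 1 (0.0606) were. The next probe set read 5.54 and 5.78 in PBS, 5.95, 6.30, 6.27 and 6.36 in control and 6.37, 6.59, 6.09 and 6.69 in Rab5 livers, 0.78 above PBS for Rab5 siRNA (SE 0.168, adjusted p = 0.00873 in the fit of every probe set). The 2 dim probe sets, under the filter, had the opposite sign for Rab5 minus control (-0.28 and -0.22, not called), and in the first of them the groups did not overlap. Macrophage markers were higher in Rab5 livers, with the values given above, and their part in Fabp4 was not tested. Of the 6 adipocyte markers on the array, Adipoq, Lep and Cidea were under the table median on all arrays and Retn, Cidec and Car3 were not. Cidec, a lipid droplet protein that fatty livers also make, was 0.46 above control (adjusted p = 0.124) and 0.64 above PBS (adjusted p = 0.102) in Rab5 livers, Retn stood at -0.22 and 0.03, and Car3 fell against both. The mean of these 3 ran from 7.14 to 7.41 in PBS, 7.16 to 7.66 in control and 6.84 to 7.33 in Rab5 livers, and its part was not tested.

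Fabp2, the intestinal form, did not pass. It read 8.33 and 8.25 in PBS, 8.6, 8.87, 8.61 and 8.49 in control and 8.47, 8.62, 8.12 and 9.17 in Rab5 livers, which held both the lowest and the highest value of the 8 siRNA livers. The change was -0.04 (SE 0.177, adjusted p = 0.89), and all controls lay above both PBS livers (0.35, SE 0.216, adjusted p = 0.999). Whether Fabp5 changed unlike its relatives was asked within arrays, by an exact two-sided permutation test over the 8 siRNA arrays, whose smallest p is 0.0286. The test did not use the replicate numbers. Fabp5 had the largest fall of these genes in the same arrays, so its p-values are only a description. The change of Fabp5 was lower than that of Fabp4 by 1.59 (difference -1.59, exact p = 0.0286), than that of Fabp2 by 1.27 (difference -1.27, exact p = 0.0857) and than that of Fabp1 by 0.90 (difference -0.90, exact p = 0.0857). Adjusted over the 4 pairs compared, the p of each was 0.0857. With the arrays paired by number, an alternative added after seeing the data, Fabp5 minus Fabp4 changed by -0.20, -2.23, -1.46 and -2.46 for numbers 1 to 4, all below 0 (exact p = 0.125), which is the smallest p that 4 pairs allow. Fabp5 minus Fabp1 and Fabp5 minus Fabp2 were below 0 in 3 of 4 pairs, with number 1 near 0 (exact p = 0.25 for each). The paired test could not reach the threshold, so it leaves undecided whether the changes differ.

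Of the transport proteins, Slc27a2 fell, and Slc27a4 just missed the threshold. Slc27a2, the very long-chain acyl-CoA synthetase of hepatocytes, read 12.42 and 12.18 in PBS, 12.26, 12.41, 12.22 and 12.29 in control and 11.59, 11.30, 11.24 and 11.52 in Rab5 livers. The Rab5 livers lay below all 6 others with a wide gap. The change was -0.88 (SE 0.107, adjusted p = 6.40e-05), which left 54.3%, and against PBS it was -0.89 (SE 0.131, adjusted p = 0.000434). Control siRNA minus PBS was -0.0064 (SE 0.131). The mean of the 8 hepatocyte markers was also lower in all Rab5 livers than in all others, with the values given above. That mean holds the called falls of Tat and Cyp2e1 and the called rise of Ahsg, while Alb and the other markers did not pass. The part of hepatocyte RNA in the lower Slc27a2 and Fabp1 was not tested. Slc27a4, a related transporter that is prominent in gut and skin, read 7.28 and 7.14 in PBS, 7.21, 7.09, 7.01 and 6.91 in control and 6.75, 6.65, 7.01 and 6.44 in Rab5 livers. Rab5 replicate 3 lay inside the control range. The change of -0.34 (SE 0.122) did not pass (adjusted p = 0.0593), but passed with the replicate number as a block (adjusted p = 0.0272), and then 5 member genes were called. It also passed without Rab5 replicate 3 (-0.44, adjusted p = 0.019), with quantile normalization (0.0357), with array weights (0.0285) and with the filter at the 75th percentile (0.0461).

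Against PBS Slc27a4 was called (-0.49, SE 0.150, adjusted p = 0.0372), but not in the fit of every probe set (adjusted p = 0.0582). This call was lost without PBS replicate 1 or 2 (adjusted p = 0.25 and 0.104), control replicate 2 or 3 (0.0505 and 0.0516), Rab5 replicate 2 or 4 (0.0845 and 0.0742), and without the arrays numbered 2 (0.238) or 1 (0.211). The changes of Slc27a2 and Slc27a4 differed within arrays by -0.54 (exact p = 0.0571, adjusted 0.0857 over the 4 pairs), which did not pass. Paired by number, the differences were -0.21, -0.67, -0.97 and -0.30, all below 0 (exact p = 0.125, the smallest possible).

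**Figure D3:**
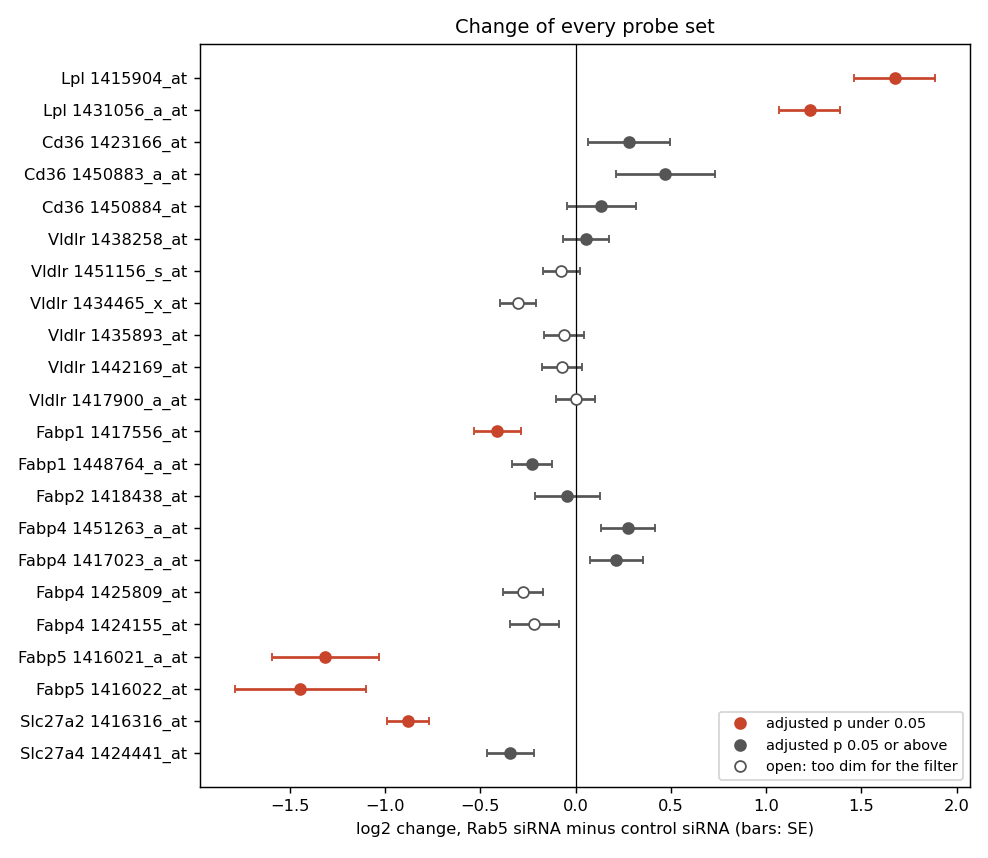
Log2 change for Rab5 siRNA minus control siRNA (horizontal axis; bars are SE) of all 22 probe sets, red where the limma adjusted p over all probe sets is under 0.05 and open where the probe set was too dim for the filter. The 2 probe sets of Lpl (1.67 and 1.23) and the 2 of Fabp5 (-1.31 and -1.45) point the same way, while only 1 of 2 for Fabp1 is called.

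For control siRNA against PBS, limma called 0 of the 9 member genes, and 0% of all genes tested. At an unadjusted p under 0.05 the counts were 0 of 9 and 554 of 12855. The differences of the members ran from -0.21 (Lpl) to 0.48 (Fabp5), and only 2 PBS arrays stand behind them. For Rab5 siRNA against PBS 4 member genes were called, Lpl and Fabp4 up and Slc27a2 and Slc27a4 down, against 17.1% of all genes (9.53% up, 7.59% down). Of the 22 probe sets 4 were up and 1 down, against 4.26% and 3.57% of all probe sets (7.82% in all). The count of genes was 2 without PBS replicate 1 or 2 or Rab5 replicate 2 or 4, and 1 without the arrays numbered 2. Lpl and Slc27a2 were thus called against both reference groups.

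**Figure D4:**
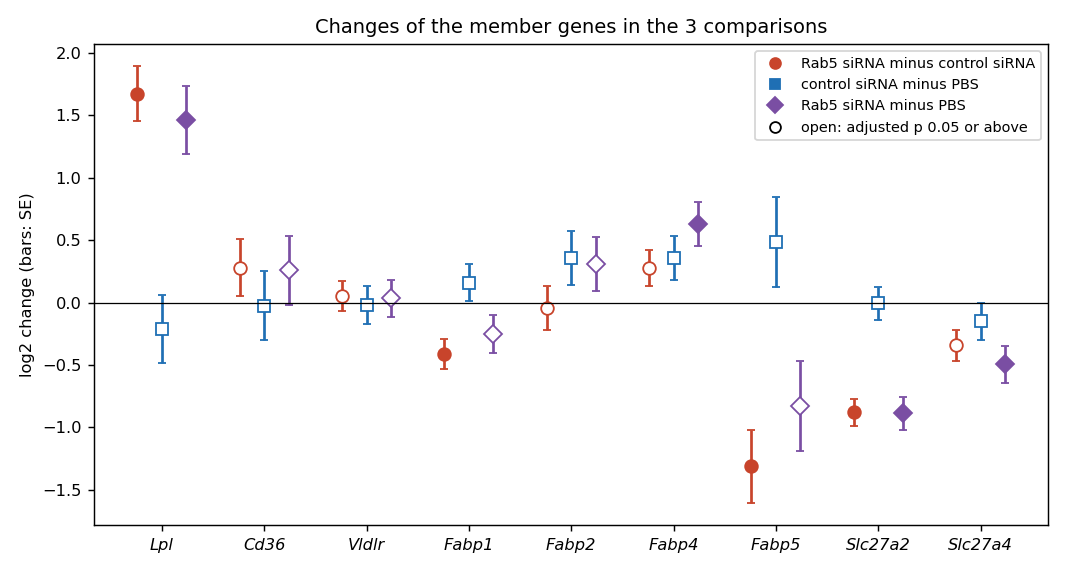
Log2 changes (vertical axis; bars are SE) of the 9 genes for Rab5 siRNA minus control siRNA, control siRNA minus PBS and Rab5 siRNA minus PBS, filled where the limma adjusted p is under 0.05. Lpl and Slc27a2 are filled in both Rab5 comparisons, Fabp1 and Fabp5 only against control siRNA, Fabp4 and Slc27a4 only against PBS; that these differ between comparisons was not tested.

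The genes around these proteins were followed in fixed lists, all for Rab5 siRNA minus control siRNA. Beside every count of a list stands the share of all genes tested that was called, 23.3% (13.8% up, 9.51% down). No list was tested as a set, so the counts are a description. Of 14 lipase regulators 2 rose and 2 fell (median -0.19). Apoc2, the cofactor that Lpl needs, rose by 0.70 (SE 0.0984, adjusted p = 0.000188), and Apoa5, which helps lipolysis at the capillary wall, fell by 0.58 on the log2 scale (SE 0.116, adjusted p = 0.0026). Sel1l, which Lpl needs to leave the endoplasmic reticulum, changed by -0.53 (SE 0.110, adjusted p = 0.00366), a call lost when its probe sets were averaged (-0.19, adjusted p = 0.127). The proteoglycan Sdc1, which takes up lipoprotein remnants, rose by 0.44 (SE 0.120), a call lost when Rab5 replicate 3 (adjusted p = 0.0592) or the arrays numbered 2 (0.0932) were left out. Gpihbp1, the capillary anchor of Lpl (-0.21), the inhibitor Angptl4 (-0.20) and the chaperone Lmf1 (-0.19) did not pass, names taken outside the rule for naming genes. Without Rab5 replicate 1, 7 of the list were called.

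Of 19 other lipases measured, 7 fell and 1, Ces1g, rose by 0.48 (SE 0.145, median of the list -0.37), and 12 fell and 2 rose with the replicate number as a block. The carboxylesterases Ces2a and Ces1d, which act on hepatic triglycerides and drugs, changed by -1.74 (SE 0.219, adjusted p = 8.09e-05) and -1.48 (SE 0.169, adjusted p = 3.89e-05). Lipg, the endothelial lipase, a close relative of Lpl, changed by -1.36 (SE 0.162), and the monoglyceride lipase Mgll by -1.14 (SE 0.176). Lpl and Lipg, both lipases of the vessel wall, thus went in opposite directions in the same livers. A further Lipg probe set gave -1.32, and a dim one 0.0053.

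Of 14 further genes of fatty acid uptake and binding 3 rose and 1 fell (median -0.03). Slc27a5, the transporter and bile acid-CoA ligase of hepatocytes, changed by -1.12 (SE 0.117, adjusted p = 1.95e-05), the same direction as Slc27a2. Fabp7, the brain form, rose by 1.16 (SE 0.259, adjusted p = 0.00565) from a low level of 5.47, and the acyl-CoA synthetases Acsl3 and Acsl4 rose by 1.12 (SE 0.199) and 0.79 (SE 0.162). Slc27a1 (-0.02) and Fabp3 (-0.11), the muscle forms, did not pass and were named after their values were seen.

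Among 13 lipoprotein receptors and their partners 1 rose and 1 fell (median -0.05), and 2 rose and 2 fell with the block. Lsr, a hepatic receptor of remnants, rose by 0.82 (SE 0.147, adjusted p = 0.00124), and Scarb2, a lysosomal membrane protein of the Cd36 family, fell by 0.39 on the log2 scale (SE 0.0985, adjusted p = 0.011). The call of Scarb2 was lost when its probe sets were averaged (adjusted p = 0.0675) and without the arrays numbered 2 (0.0695). Without Rab5 replicate 3, 4 of this list were called.

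Of 22 regulators of lipid genes 8 fell and 1 rose (median -0.28). Ppara, the receptor that drives Fabp1 and other members, changed by -0.98 (SE 0.146, adjusted p = 0.000299) and its coactivator Ppargc1a by -1.06 (SE 0.205). Ppargc1a read 5.25 in control and 4.18 in Rab5 livers, the latter under the table median. Its other probe sets gave -0.87, -1.10 and -0.70, which were called, and -0.18, which was not. The glucose-responsive factor Mlxipl changed by -0.88 (SE 0.142) and the hepatocyte and adipocyte factor Cebpa by -0.88 (SE 0.153). Pparg, which drives Lpl, Fabp4 and Cd36 in fat cells and macrophages, was the 1 that rose (0.49, adjusted p = 0.00706, named after its value was seen). Against control siRNA Lpl was called, while Fabp4 and Cd36 were not. Of 18 further targets of PPARalpha or PPARgamma 5 fell and 2 rose (median -0.16). Acaa1b (-1.56, SE 0.155), a peroxisomal thiolase, and Fitm1 (-1.44, SE 0.178), a protein of lipid droplet formation, fell, whereas Pdk4 (2.78, SE 0.209), which turns off pyruvate dehydrogenase, and the thioesterase Acot2 (1.57, SE 0.191) rose. Calls among these targets thus went both ways, more of them down than up, and Lpl, also a target, rose. The list pools targets of both receptors, and the part of either in the member changes was not tested.

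**Figure D5:**
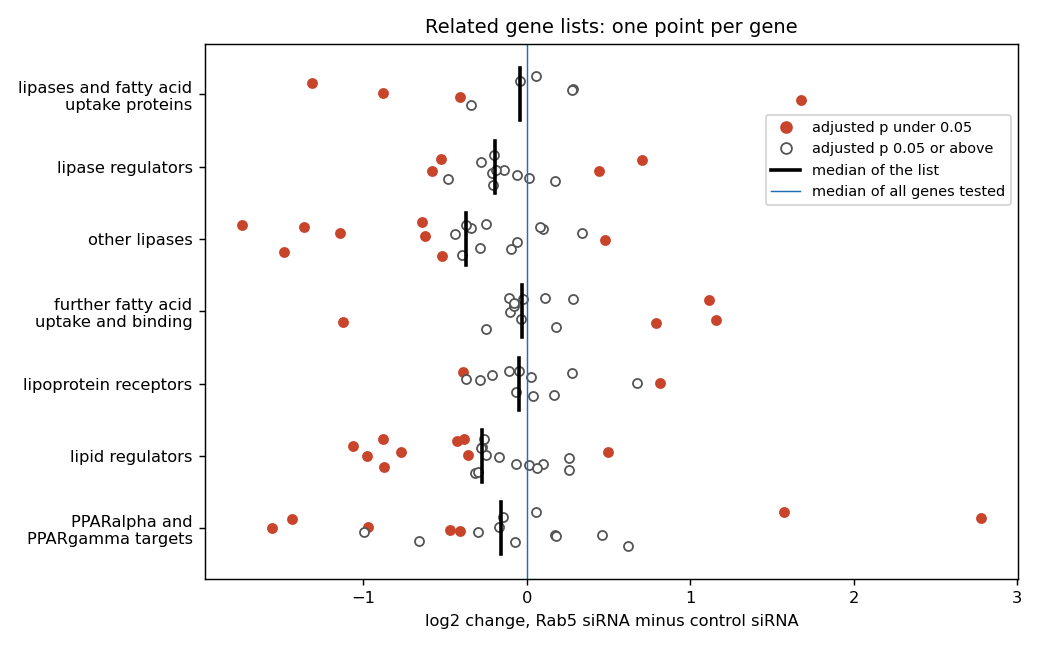
Log2 change for Rab5 siRNA minus control siRNA (horizontal axis) of the 9 member genes and of the genes in 6 related lists, 1 point per gene, red where the limma adjusted p is under 0.05; thick bars are list medians and the thin line is the median of all genes tested. The other lipases (median -0.37) and the lipid regulators (-0.28) lie furthest to the left, and the genes furthest to the right are Pdk4 (2.78), Lpl (1.67) and Acot2 (1.57).

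The genes whose values ran most like those of the called members over the 10 arrays were named by a fixed rule, as a description. For Lpl they were Tmem71 (r = 0.994) and Chmp2b, a subunit of the ESCRT-III complex of endosomes (r = 0.991). For Slc27a2 they were the mitochondrial import factor Grpel1 (r = 0.984) and the soluble epoxide hydrolase Ephx2 (r = 0.984). For Fabp5 they were the complement protein C8b (r = 0.959) and the growth factor receptor Egfr (r = 0.947), and for Fabp1 Rdm1 (r = 0.971) and Keg1 (r = 0.933). The points share their arrays and groups. Tmem71 rose by 2.01 (SE 0.304) and Chmp2b by 1.10 (SE 0.169), while Ephx2 changed by -0.91 (SE 0.0955). C8b did not pass (-0.27, SE 0.101, adjusted p = 0.0734). Genes picked for a high r over these arrays tend to share the direction of the member, so the shared direction adds nothing.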

How the data were processed

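RNA of 10 mouse livers was measured on Affymetrix whole-genome mouse arrays. The deposited values are log2 expression, made by the authors with Affymetrix Expression Console, RMA and Partek 6.6, per the submitters' processing notes, which give no order or settings. RMA subtracts background, makes the arrays' distributions equal and summarises probes, so a general shift of all RNA would not be seen. No detection calls, scan dates or genome build are given in the sources used here. The number of arrays limits the precision.

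Symbols came from the platform annotation: 34945 probe sets had 1 symbol, 932 several and 9160 none, besides 64 controls. Probe sets above the table median (4.33) in at least 2 arrays were kept, and the one with the highest mean stood for its gene (12855 genes). limma 3.58.1 (lmFit, eBayes) in R 4.3.3 was fitted to all 10 arrays with a mean per group. A fit of all 45037 probe sets other than controls, unfiltered, gave values for single probe sets. The code was tested on simulated data. Same-numbered control and Rab5 arrays deviated together from their group means (r = 0.391, 0.149, 0.186 and 0.312 for numbers 1 to 4, across genes). Unlike-numbered arrays ran from r = -0.335 to 0.199. Number 2 was not singled out, since control 4 with Rab5 2 (0.199) and control 2 with Rab5 4 (0.183) were higher. Pairing by number is thus only a hint from the data, and no label says so. The main fit did not use the numbers, and the fit with the replicate number as a block is given as an alternative. The named genes were the members, Rab5a and Rab5c, up to 4 called genes with the largest change per related list (the 2 largest changes where under 2 were called), the 3 brightest of each marker list, and the 2 genes most correlated with each called member. Cd68, Adipoq, Lep, Cidea and Csf1r are named as defining markers, and Ahsg, Tat and Cyp2e1 as the called hepatocyte markers. Members and lists were chosen with earlier results of these data known, and no list was tested as a set.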

Additional observations from a re-analysis of the deposited data

Results flagged for a closer look

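In 44 groups of 4 arrays (22 probe sets in the control and Rab5 groups), 2 held an array far from the other 3, about as many as chance gives, since 1 in 20 groups is expected to. Lpl in control replicate 1 read 6.90, against 7.68 to 7.82 in the other controls, and the macrophage markers were lowest in the same liver. Without it, the change of Lpl for Rab5 siRNA minus control siRNA was 1.46 and stayed called. The dim Vldlr probe set whose control and Rab5 groups did not overlap read 3.19 in control replicate 3, against 3.03 to 3.06 in the other controls.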

How the results depend on the processing

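Settings tried were other filters, probe set rules, scalings, array weights, 2 groups only (which gives no value for Rab5 siRNA minus PBS), a replicate block, each array left out, and all arrays numbered 2 or, added after seeing the data, 1. For Rab5 minus control siRNA, Lpl, Fabp5 and Slc27a2 kept direction and call in all 22. Genes called for that comparison were 1549 without the arrays numbered 2 and 2222 to 3420 with 1 array left out. For control siRNA minus PBS they were 2 with quantile normalization, 3 with array weights, 1 with the replicate block, 8 without the arrays numbered 1, and 0 to 18 with 1 array left out. For Rab5 siRNA minus PBS they were 802 without the arrays numbered 2 and 1113 to 2629 with 1 array left out, and members called were 1 and 2 to 5. Called lipase regulators ranged from 3 to 7 and lipoprotein receptors from 2 to 4 with 1 array left out. Called lipoprotein receptors were 1 with the mean of probe sets or without the arrays numbered 2, and 4 with the replicate block, which also gave 14 other lipases and called Slc27a4 for Rab5 minus control siRNA. Array weights gave 14 lipid regulators. Signs turned for changes near 0. For Rab5 minus control siRNA, Vldlr ran from -0.041 to 0.15 and Fabp2 from -0.23 to 0.11 with 1 array left out, and Fabp2 was 0.026 without the arrays numbered 2. For control siRNA minus PBS, leaving out 1 array gave -0.32 to 0.0035 for Lpl, -0.12 to 0.13 for Cd36, -0.11 to 0.075 for Vldlr, -0.033 to 0.35 for Fabp1 and -0.13 to 0.11 for Slc27a2. In the same comparison, Cd36 was 0.029 with the most variable probe set, 0.018 with quantile normalization, 0.012 with array weights and 0.19 without the arrays numbered 1. The replicate block gave 0.092 for Vldlr and 0.029 for Slc27a2, quantile normalization 0.0035 for Slc27a2, and leaving out the arrays numbered 2 gave -0.031 for Fabp1, those numbered 1 0.12 for Slc27a2. For Rab5 siRNA minus PBS, Vldlr ran from -0.055 to 0.12 with 1 array left out and was -0.050 without the arrays numbered 1. The cause of these shifts was not tested. Signals near background limit Vldlr and the dim Fabp4 probe sets, and 2 PBS arrays limit both comparisons with PBS.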

Other observations

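Fabp5, Pmp2, Fabp9, Fabp4 and Fabp12 follow each other on mouse chromosome 3 in the RefSeq gene order (GRCm38.p6). Of these neighbours, Fabp5 fell by 1.31 on the log2 scale for Rab5 siRNA minus control siRNA, while Fabp4 (0.27), Pmp2, the myelin form (-0.08), and Fabp12 (0.11) did not pass, and Fabp9 was not among the genes tested. Pmp2 and Fabp12 lay close to the table median, where a change is compressed.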
